A study of Mus musculus with 9 samples.

Results

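The MiT/TFE transcription factors Tfeb, Tfe3 and Mitf and the folliculin complex genes Flcn, Fnip1 and Fnip2 were taken as the rows of the deposited expression table that carry these names. All 6 genes were found, each on 1 row, among 21899 gene rows. The table holds RNA-seq of N2a cells (Neuro-2a, a mouse neuroblastoma line that the labels class as neuroblast) in 9 libraries, all without drug treatment. The cells carried pLKO.1 hairpin vectors with a puromycin resistance gene, and every group, shlucif against luciferase as the control and shArf1-1 and shArf1-2 against Arf1, had 3 libraries. A knockdown leaves part of the transcript in place, and Arf1-deficient cells here means the 6 libraries of both Arf1 hairpins. The labels number the libraries of a group but do not name separate cultures, so the p-values measure the spread between these libraries, which may be technical.

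MITF, TFEB and TFE3 are basic helix-loop-helix leucine zipper proteins that bind E-box elements as dimers and switch on genes of lysosomes and autophagy. When amino acids are plentiful they are recruited to the lysosome by Rag GTPases, phosphorylated by mTORC1 and held in the cytosol by 14-3-3 proteins. Folliculin, bound to FNIP1 or FNIP2, is a GTPase activating protein for RagC and RagD, and this activity lets mTORC1 phosphorylate TFEB and TFE3. RNA-seq reads transcript levels and neither phosphorylation nor the place of a protein in the cell.

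The 21-base targets of both hairpins are shown because they define the Arf1-deficient groups. The sense strand of each was read from the supplementary oligonucleotide list.
shArf1-1: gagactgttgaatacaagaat
shArf1-2: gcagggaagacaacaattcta
Both matched Arf1 over all 21 bases, and the longest run that either shared with a transcript of the 6 genes was 10 bases, between shArf1-2 and Mitf. Arf1, a small GTPase of the Golgi, averaged 324 FPKM in control cells (SD 6.72, n = 3), 128 FPKM in shArf1-1 cells (SD 1.73, n = 3) and 165 FPKM in shArf1-2 cells (SD 6.92, n = 3). FPKM is the read count scaled by gene length and by the total count of the library. The libraries held between 11182479 and 15594615 counts.

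In the comparison of Arf1-deficient with shlucif cells, Tfeb, Mitf, Flcn, Fnip1 and Fnip2 fell and Tfe3 did not pass the test. The lower level was thus called in 5 of 6 genes, against 32.9% of all 12448 genes tested, by the quasi-likelihood test of edgeR at a Benjamini-Hochberg adjusted p below 0.05, which is the threshold throughout. With shArf1-1 alone the same count was 5 of 6 against a background of 34.4%, and with shArf1-2 alone it was 5 of 6 against 32.6%, both comparisons using the same 3 shlucif libraries. In the 5 genes that fell, all 6 Arf1-deficient libraries lay below all 3 shlucif libraries, which was so for 30.1% of the tested genes. A decrease of at least 1 on the log2 scale was reached by Tfeb, Mitf, Flcn and Fnip2, as by 9.33% of the tested genes. The place of each gene among all tested genes is therefore given as well.

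**Figure D1:**
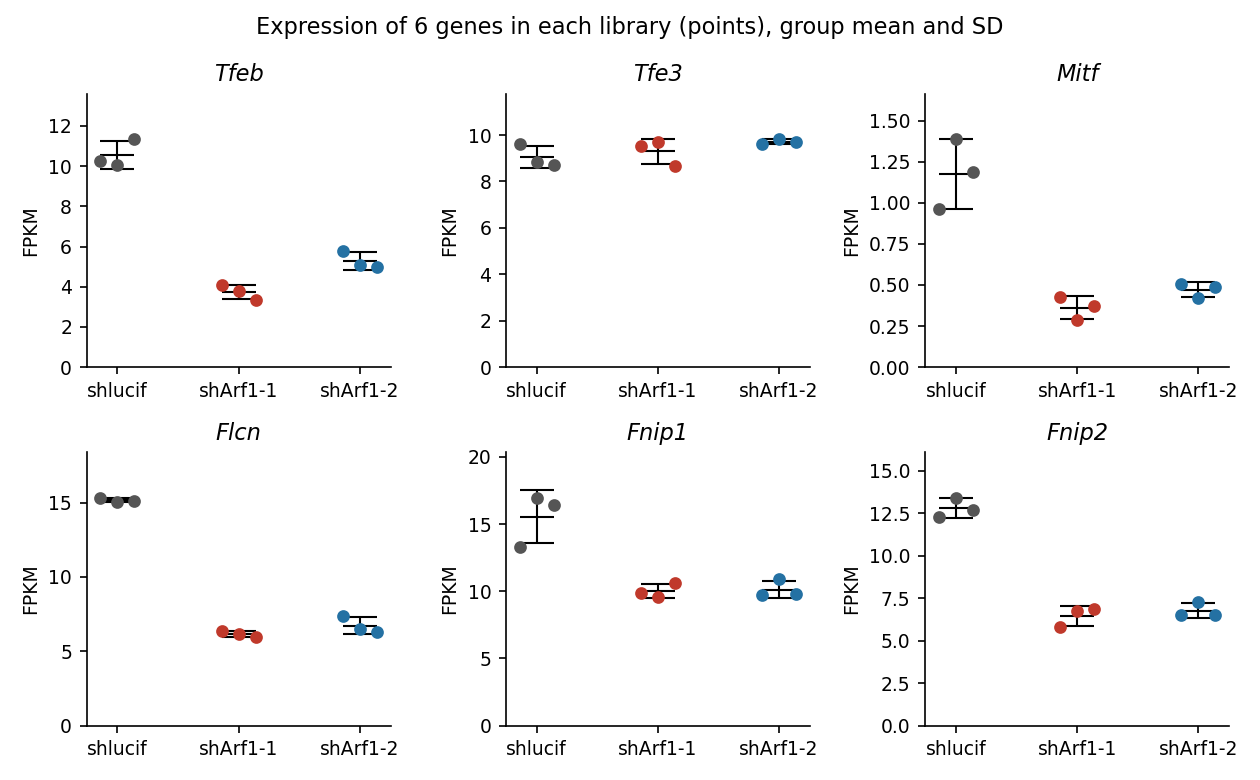
FPKM of each gene in every library (points, 3 per hairpin group, axis from 0), with the group mean and SD as bars. For Tfeb, Mitf, Flcn, Fnip1 and Fnip2 all Arf1-deficient points lie below the shlucif points, while the Tfe3 points of shArf1-1 overlap those of shlucif and the points of shArf1-2, from 9.64 FPKM, lie just above the highest shlucif point at 9.62 FPKM.

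Tfeb (ENSMUSG00000023990, plus strand of chromosome 17, 47737030 to 47792419 in GRCm38) encodes the factor best known for driving lysosome biogenesis. It was at 10.3, 10.1 and 11.3 FPKM in the shlucif libraries, at 4.07, 3.80 and 3.35 FPKM with shArf1-1 and at 5.78, 5.07 and 4.98 FPKM with shArf1-2. The groups did not overlap, and shArf1-2 lay between the other two. Behind these values were 764 to 876 counts with shlucif and 241 to 480 counts in Arf1-deficient cells. Tfeb fell by 1.29 in log2 fold change (SE 0.13, 95% interval -1.56 to -1.02, adjusted p = 3.91e-07 from edgeR), a 2.44-fold lower level. This fit pools the hairpins, so its interval also holds the difference between them. In the fit of 3 groups Tfeb changed by -1.56 with shArf1-1 (95% interval -1.74 to -1.37). With shArf1-2 it changed by -1.07 (-1.25 to -0.89). Of all tested genes, 6.93% had a change as low or lower.

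Mitf (ENSMUSG00000035158, plus strand of chromosome 6, 97807052 to 98021349) encodes the family member that directs melanocyte and osteoclast development, and it was the scarcest of the 6 transcripts. Its levels were 0.960, 1.39 and 1.18 FPKM with shlucif, 0.426, 0.289 and 0.373 FPKM with shArf1-1, and 0.506, 0.420 and 0.490 FPKM with shArf1-2. Every Arf1-deficient library was thus below every control library, although only 20 to 46 counts stood behind the Arf1-deficient values and 82 to 115 behind the control values. Mitf fell by 1.55 in log2 fold change (SE 0.19, 95% interval -1.95 to -1.14, adjusted p = 1.07e-06 from edgeR), which was 2.92-fold lower and the widest interval of the 6. On the log2(FPKM + 1) scale, which compresses low values, the change was -0.62 and still past the threshold.

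Tfe3 (ENSMUSG00000000134, plus strand of chromosome X, 7762560 to 7775202) encodes a close relative of TFEB with many of the same targets. It was at 9.62, 8.84 and 8.73 FPKM with shlucif, at 9.54, 9.70 and 8.68 FPKM with shArf1-1, and at 9.64, 9.83 and 9.71 FPKM with shArf1-2. In FPKM the shArf1-1 libraries overlapped the control libraries, and the shArf1-2 libraries lay above the highest control library by a margin smaller than the spread of the controls. After TMM scaling all groups overlapped, with 83.3 to 92.6 CPM in control cells, 79.5 to 89.2 CPM with shArf1-1 and 87.9 to 88.7 CPM with shArf1-2. Its log2 fold change was 0.0067 (SE 0.06, adjusted p = 0.931 from edgeR), with a sign that turned to -0.0056 when DESeq2's size factors replaced TMM. The 95% interval of -0.12 to 0.13 excludes changes of the size seen in the other 5 genes. The last family gene, Tfec, had 2 counts in each shlucif library and 0 counts in each Arf1-deficient library, so that a difference was not detectable at this depth.

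**Figure D2:**
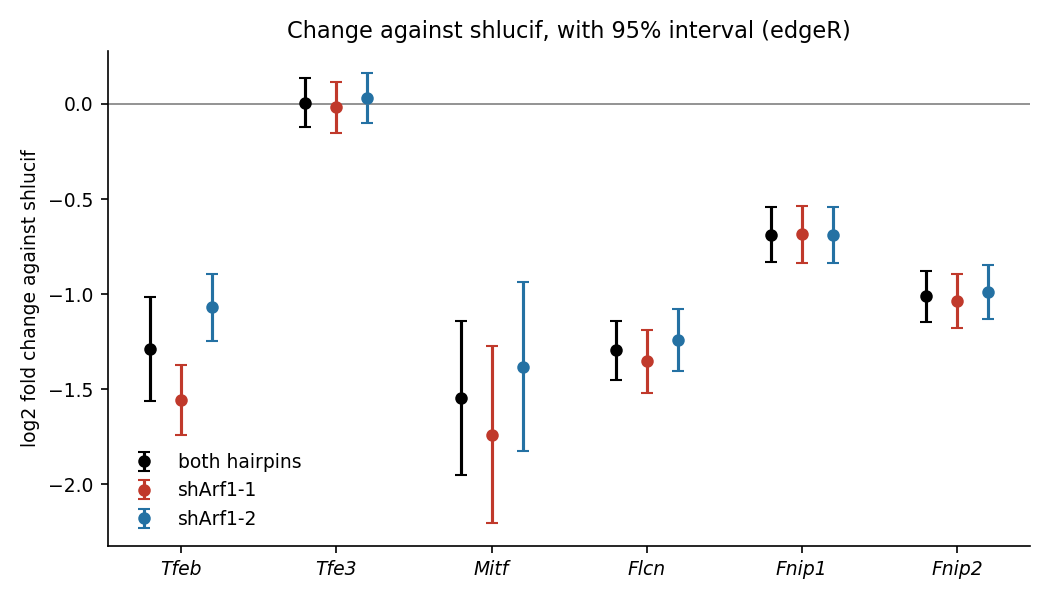
Log2 fold change of each gene against shlucif (points) with its 95% interval (bars), for both hairpins together, shArf1-1 and shArf1-2. The Tfe3 intervals span 0, the other intervals lie below 0, and the Tfeb points of the hairpins, at -1.56 and -1.07, are apart.

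The FPKM of the 3 factors were set against each other and added up, which rests on the gene lengths used. FPKM divides by all exonic bases, 9261 for Tfe3 and 5669 for Tfeb. Their coding transcripts held 3720 and 5196 distinct 31-base stretches, so a length from these would raise Tfe3 relative to Tfeb. In TMM CPM, which leaves out length, Tfe3 was at 86.45 and Tfeb at 61.62 in control cells. In Arf1-deficient cells they were at 86.89 and 25.19 CPM. The summed level of the 3 factors was 20.8 ± 0.481 FPKM in control cells, 13.4 ± 0.884 FPKM in shArf1-1 cells and 15.5 ± 0.395 FPKM in shArf1-2 cells (mean ± SD of 3 libraries). Tfeb had the highest FPKM of the factors in control cells, at 50.7 ± 2.28% of the sum (SD, n = 3, as for all shares), and Tfe3 made up 43.6 ± 2.55%. In Arf1-deficient cells Tfe3 took the larger share of the FPKM sum, 69.4 ± 1.28% with shArf1-1 and 62.9 ± 2.04% with shArf1-2. The share of Tfeb was then 27.9 ± 1.04% and 34.1 ± 1.93%, and that of Mitf stayed small, at 5.67 ± 1.12% in control cells, 2.71 ± 0.533% with shArf1-1 and 3.05 ± 0.270% with shArf1-2.

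**Figure D3:**
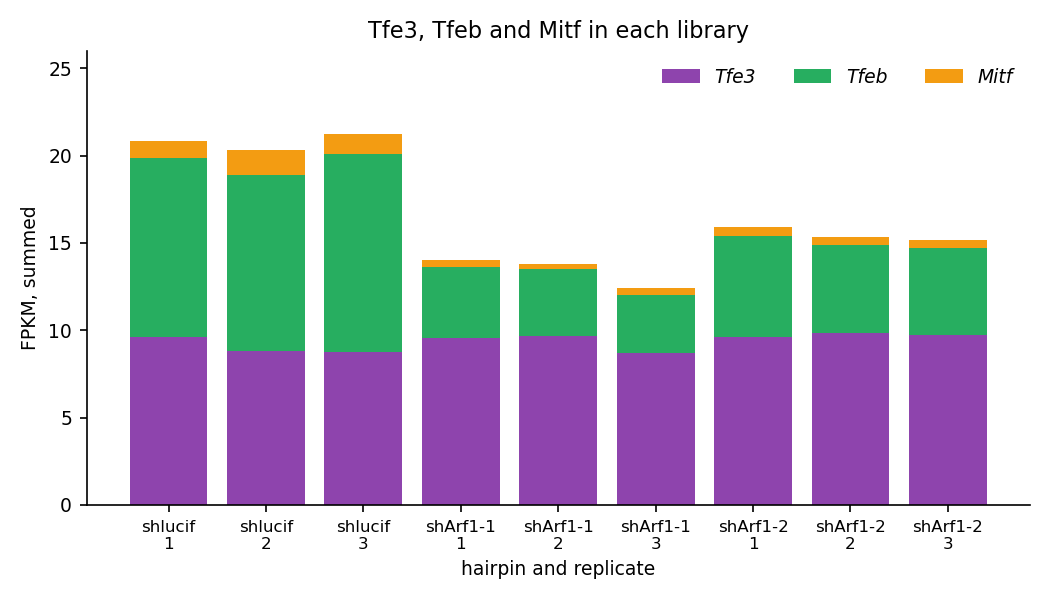
FPKM of Tfe3, Tfeb and Mitf stacked for each library (bars, axis from 0, hairpin and replicate on the x axis). The Tfe3 segment stays between 8.68 and 9.83 FPKM in all 9 libraries, while the Tfeb segment is shorter in each Arf1-deficient library than in each shlucif library.

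The FPKM ratio of Tfeb to Tfe3 depends on the gene lengths used but not on how libraries are scaled. It was 1.17 ± 0.119 (SD, n = 3) with shlucif, 0.402 ± 0.0222 with shArf1-1 and 0.543 ± 0.0490 with shArf1-2. Its log2 value differed by -1.32 between Arf1-deficient and control cells (two-sided exact permutation test over the 84 ways to pick 3 of 9 libraries, p = 0.0238, the smallest that this design allows). Of the 15 ratios between the 6 genes, 9 reached an adjusted p under 0.05 after Benjamini-Hochberg adjustment over the 15, each at 0.0397 by the same exact test. These 9 included the 5 ratios that hold Tfe3. The ratio of Tfeb to Flcn differed by -0.01 on the log2 scale (exact p = 0.881), but it went opposite ways with the hairpins. It was 0.668 to 0.750 in control cells, 0.563 to 0.637 with shArf1-1, below every control library, and 0.780 to 0.790 with shArf1-2, above every control library. The ratio of Tfeb to Mitf differed by 0.25 (exact p = 0.214).

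Flcn (ENSMUSG00000032633, minus strand of chromosome 11, 59791408 to 59810016) encodes folliculin. It was at 15.3, 15.1 and 15.1 FPKM with shlucif, at 6.40, 6.17 and 5.95 FPKM with shArf1-1 and at 7.40, 6.48 and 6.31 FPKM with shArf1-2. The control libraries were nearly alike, and all 6 Arf1-deficient libraries were at less than their level by more than the spread within any group. Flcn fell by 1.30 in log2 fold change (SE 0.07, 95% interval -1.45 to -1.14, adjusted p = 1.81e-11 from edgeR), that is 2.46-fold, and 6.85% of tested genes had a change as low or lower.

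Fnip2 and Fnip1 encode the alternative partners through which folliculin is stabilized and linked to AMPK. Fnip2 (ENSMUSG00000061175, minus strand of chromosome 3, 79455974 to 79567796) was at 12.3, 13.4 and 12.7 FPKM with shlucif, at 5.80, 6.76 and 6.84 FPKM with shArf1-1, and at 6.53, 7.26 and 6.53 FPKM with shArf1-2. It fell by 1.01 in log2 fold change (SE 0.06, 95% interval -1.15 to -0.88, adjusted p = 8.48e-11 from edgeR), that is 2.02-fold, with no overlap between control and Arf1-deficient libraries.

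Fnip1 (ENSMUSG00000035992, plus strand of chromosome 11, 54438199 to 54518235) was at 13.3, 17.0 and 16.4 FPKM with shlucif, at 9.89, 9.56 and 10.6 FPKM with shArf1-1, and at 9.70, 10.9 and 9.81 FPKM with shArf1-2. It varied more in control cells than the other complex genes, and its lowest control library still lay above its highest Arf1-deficient library. Fnip1 fell by 0.69 in log2 fold change (SE 0.07, 95% interval -0.83 to -0.54, adjusted p = 6.63e-08 from edgeR), that is 1.61-fold, and 14.8% of tested genes had a change as low or lower. The ratio of Fnip1 to Fnip2 was 1.21 ± 0.112 (SD, n = 3) with shlucif, 1.56 ± 0.145 with shArf1-1 and 1.496 ± 0.00984 with shArf1-2. On the log2 scale the ratio was higher by 0.33 in Arf1-deficient cells (exact permutation test, p = 0.0238, adjusted over 15 ratios 0.0397), and the ratio of Flcn to Fnip1 differed by -0.62 with the same p.

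Between the hairpins, Tfeb alone among the 6 genes differed at an adjusted p under 0.05, against 14.4% of all tested genes (1798) in either direction. That number fell to 1159 without shArf1-1 replicate 1, to 1194 without shArf1-2 replicate 1 and to 945 in limma on log2(FPKM + 0.1), and Tfeb passed in each of these. It was higher with shArf1-2 than with shArf1-1 by 0.49 in log2 fold change (SE 0.10, 95% interval 0.29 to 0.68, adjusted p = 0.000486 from edgeR), and the 3 libraries of each hairpin did not overlap. Arf1 itself was also higher with shArf1-2, by 0.34 (adjusted p = 1.16e-05 from edgeR). The difference was 0.36 for Mitf (95% interval -0.15 to 0.86), 0.11 for Flcn (-0.07 to 0.29), 0.05 for Fnip2 (-0.10 to 0.19), 0.05 for Tfe3 (-0.08 to 0.18) and -0.0058 for Fnip1 (-0.16 to 0.15), none of them past the threshold. The interval for Mitf includes a difference as large as that of Tfeb.

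The order of the FPKM levels changed with knockdown, and this order depends on the gene lengths used. In control cells it ran in FPKM from Fnip1 and Flcn, whose libraries overlapped, through Fnip2, Tfeb and Tfe3 to Mitf, each above the next in every library. With either Arf1 hairpin it ran from Fnip1 and Tfe3, which overlapped, through Fnip2 and Flcn, which overlapped as well, to Tfeb and Mitf. In FPKM, Tfe3 thus went from the fifth place to a place level with Fnip1, with its own FPKM within the range of the control libraries or close to it. In TMM CPM, which leaves out length, the control means were 114.6 for Fnip2, 114.0 for Fnip1 and 86.45 for Tfe3. Flcn, Tfeb and Mitf followed at 67.53, 61.62 and 7.502 CPM. In Arf1-deficient cells the means were 86.89 CPM for Tfe3, 70.73 for Fnip1 and 56.75 for Fnip2. Below these were Flcn, Tfeb and Mitf at 27.49, 25.19 and 2.548 CPM. By mean CPM, Tfe3 thus moved from below Fnip2 and Fnip1 to above both.

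The genes with the most similar profile were sought among 9268 tested genes with a mean of at least 10 CPM, by the root mean square difference in log2 CPM from the shlucif mean over 9 libraries. The nearest to Tfeb were Clu, which encodes the secreted chaperone clusterin (0.0767), and Mgat4b, a Golgi glycosyltransferase gene (0.0900). Those nearest to Flcn were Fth1, which encodes the ferritin heavy chain (0.0454), and Entpd3, an ectonucleotidase gene (0.0643), and those nearest to Mitf were Txnip and Rras at 0.178 and 0.180. Fnip2 was closest to Arid5b (0.0636) and Map3k5 (0.0639), Fnip1 to Trim24 (0.0610) and Fndc3a (0.0644), and Tfe3 to Nacc1 (0.0294) and Sbk1 (0.0298). Between the 6 genes themselves the smallest such difference was 0.165, between Tfeb and Flcn, and the largest was 1.27, between Tfe3 and Mitf.

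The other genes of the pathway are given by role, with how many of the tested genes of each list rose or fell in Arf1-deficient cells. Over all 12448 tested genes, 3933 rose (31.6%), 4094 fell (32.9%) and the median log2 fold change was 0.0033. Among the 10 genes of the Rag GTPases, the Ragulator and the amino acid sensor Slc38a9, 3 rose and 2 fell, with a median of -0.05. Rragd and Rragb, which encode the RagD and RagB GTPases, rose by 0.87 and 0.69, and the Ragulator genes Lamtor3 and Lamtor2 fell by 0.48 and 0.31. Rragd, whose product is a substrate of the folliculin complex, was at 15.1 ± 0.525 FPKM in control cells (SD, n = 3), 28.3 ± 0.678 FPKM with shArf1-1 and 29.0 ± 0.651 FPKM with shArf1-2, opposite in direction to Flcn. Rragc, which encodes the other Rag substrate of folliculin, had a log2 fold change of -0.07 (adjusted p = 0.438 from edgeR).

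Of 11 genes of GATOR1, GATOR2 and KICSTOR, which relay amino acid levels to the Rag GTPases, 5 rose and 2 fell (median 0.23). Itfg2 of KICSTOR and Seh1l, a protein of GATOR2 and the nuclear pore, rose by 1.01 and 0.90, and Nprl2 of GATOR1 and Wdr59 of GATOR2 fell by 0.49 and 0.47. Of 22 genes of kinases, phosphatases, 14-3-3 proteins and other binders that act on TFEB and TFE3, 8 rose and 2 fell (median 0.11). The mTOR complex gene Mlst8 and the calcineurin B gene Ppp3r1 rose by 0.73 and 0.45, and the kinase gene Mapk3 (ERK1) and the 14-3-3 zeta gene Ywhaz fell by 0.72 and 0.14. Mcoln1, which encodes the lysosomal calcium channel upstream of calcineurin, had a log2 fold change of -0.06 (adjusted p = 0.456 from edgeR).

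Among 9 tested genes of AMPK, its upstream kinase and PGC-1, 3 rose and 3 fell (median -0.01). Prkaa1 and Prkab1, which encode the alpha1 and beta1 subunits of AMPK, rose by 0.32 and 0.31, and Stk11 (LKB1) fell by 0.41. Prkaa2, the gene of the other catalytic subunit, had 101 to 121 counts in the shlucif libraries and 0 in all 6 Arf1-deficient libraries, a level at least 30.6-fold lower when set against a floor of 3 counts per library. Of 8 tested folliculin binding partners, Hsp90aa1 rose by 0.17 and 5 fell (median -0.32), led by the GABARAP-family gene Gabarapl1 at -0.84 and Fem1b at -0.74. In the C9orf72 complex, which like folliculin is built on DENN domains, C9orf72 and Smcr8 fell by 0.57 and 0.54 and Wdr41 rose by 0.60.

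The target genes of the factors were taken as the CLEAR network, lysosomal genes that share an E-box element, which the literature in part defined by that element. Mcoln1, Gabarap and Mycn each stand in 2 of the lists. Of 38 lysosomal CLEAR genes, 34 fell and 0 rose, with a median log2 fold change of -0.56. The largest decreases were in the genes of the proteases cathepsin B (Ctsb, -1.86, SE 0.05, adjusted p = 6.82e-16 from edgeR) and cathepsin F (Ctsf, -1.46, SE 0.20, adjusted p = 2.58e-06 from edgeR). Ctsb was at 111 ± 2.74 FPKM in control cells (SD, n = 3), 33.1 ± 1.60 FPKM with shArf1-1 and 30.8 ± 0.916 FPKM with shArf1-2. Of the 11 genes of the proton pump (V-ATPase) in the list, 10 fell, the largest decrease being 0.65 for Atp6v0b. Plbd2, Sgsh, Mcoln1 and Atp6v0a1 did not pass the test and had log2 fold changes between -0.06 and 0.09. Of 10 CLEAR genes of autophagy, 8 fell and 1 rose (median -0.51). Wipi1, a phosphoinositide binder of early autophagosomes, fell by 1.32, Sqstm1, which encodes the cargo receptor p62, fell by 1.16 and Vps8, a tethering subunit of endosomes, rose by 0.55.

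**Figure D4:**
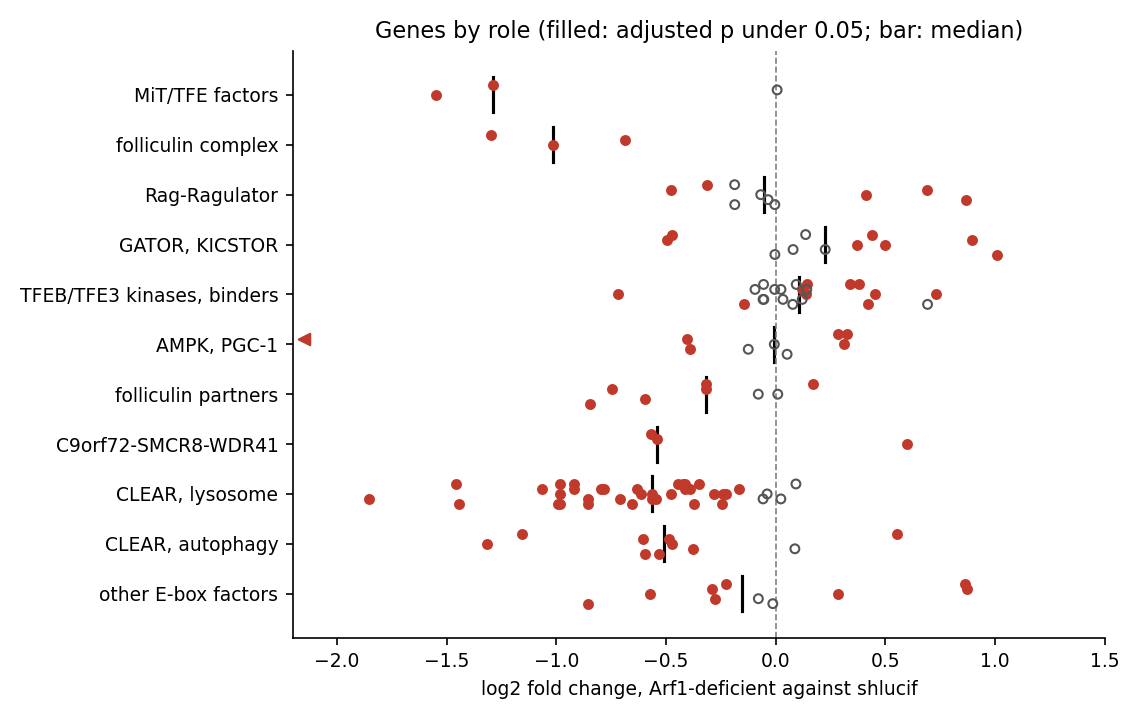
Log2 fold change in Arf1-deficient against shlucif cells (x axis) for each tested gene of the lists, by role (rows). Filled points passed an adjusted p of 0.05, bars mark the list medians and the dashed line is the median of all tested genes. The CLEAR lysosome points lie to the left with a median of -0.56, the Rag and GATOR points lie on both sides, and the arrowhead is Prkaa2, which had 0 counts in Arf1-deficient cells and is off the scale.

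The promoters were searched for the E-box CACGTG and for TCACGTGA, an 8-base form that contains it, on both strands of the 300 bases from 250 before to 50 after each RefSeq start site (GRCm38.p6). CACGTG was in 7.15% and TCACGTGA in 0.974% of all 32851 promoters. All 6 genes were matched, with 11 promoters, of which 1, that of Fnip1, held CACGTG and 0 held TCACGTGA. Of the lysosomal CLEAR genes 28 were matched, and 17 of these had a promoter with CACGTG and 9 with TCACGTGA. Over all 27025 genes with a promoter, the shares were 8.09% and 1.12%. CACGTG was also in 1 of 8 matched autophagy CLEAR genes, 4 of 9 Rag and Ragulator genes and 0 of 8 GATOR and KICSTOR genes. For TCACGTGA these counts were 1, 0 and 0. The stretches below are from Fnip1 at chr11:54438064-54438149 (plus strand), Ctsd at chr7:142387879-142387966 (minus strand) and Mcoln1 at chr8:3500433-3500518 (plus strand), with each copy of either element in capitals.
Fnip1: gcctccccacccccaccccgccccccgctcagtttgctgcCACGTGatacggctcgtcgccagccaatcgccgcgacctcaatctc
Ctsd: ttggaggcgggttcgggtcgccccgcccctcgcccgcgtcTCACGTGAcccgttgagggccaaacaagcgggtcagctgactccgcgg
Mcoln1: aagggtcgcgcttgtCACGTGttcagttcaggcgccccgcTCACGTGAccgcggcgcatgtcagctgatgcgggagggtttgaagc
They are shown because the transcripts differed in their response, and Ctsd and Mcoln1 were chosen after their values were seen. Fnip1, which holds the shorter element, fell by 0.69, Ctsd, which encodes cathepsin D and holds the longer one, fell by 0.86, and Mcoln1 holds a copy of each and did not pass the test. Cln3, not shown, also holds a copy of each and fell by 0.41 (adjusted p = 0.0081 from edgeR). Among the CLEAR genes with the longer element wholly before the start site, Mcoln1 was the exception. Besides Ctsd and Cln3 these were Ctsa, Gla, Pip4p1, Atp6v1a and Nrbf2. They fell past the threshold by 0.98, 0.99, 0.63, 0.28 and 0.38. The match of letters is a description of these windows and says nothing of binding in these cells.

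Other leucine zipper factors that bind the same E-box moved in both directions, with 3 of 10 tested genes higher and 5 lower (median -0.15). Mycn and Myc rose by 0.87 and 0.86, and Mxd4, which encodes a MAX partner opposed to MYC, and Mlxip fell by 0.85 and 0.57. The change in Mycn differed between the hairpins by -0.67, with the larger rise with shArf1-1 (adjusted p = 2.02e-08 from edgeR).

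The marker genes of other cell types moved with these results. The summed level of 18 macrophage marker genes was between 173 and 211 FPKM in the shlucif libraries, and between 0.778 and 1.07 FPKM with shArf1-1 and 1.07 and 1.39 FPKM with shArf1-2. Of these 18 genes, 12 had at least 20 counts in every control library and 13 had no more than 3 counts in any Arf1-deficient library, including the macrophage transcription factor gene Spi1 at 138 to 162 counts in controls and 0 in all 6. Among those 13, the macrophage markers Aif1, Cx3cr1 and C1qa were near 0 in the controls too, at no more than 5, 2 and 1 counts. Of the 15 tested, 14 were lower and Mrc1 was higher. The osteoclast markers, which include Ctsk and Mmp9, summed to between 27.8 and 31.1 FPKM with shlucif and to at most 1.29 FPKM in Arf1-deficient cells, although Acp5 and Calcr, which define that cell type, were at 0 in all 3 controls. Macrophages are rich in lysosomal transcripts and express Tfeb and Mitf, and the part of the marker genes in the decrease of the 5 genes, of the CLEAR lists and of Prkaa2 was not tested. In such bulk libraries, fewer cells of a type and less RNA per cell cannot be told apart.

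The melanocyte markers, pigment genes under MITF, were at or near 0. Tyr had 0 counts in all 9 libraries and the 8 genes summed to at most 2.11 FPKM in any library. The one that passed the test, Pmel, fell by 1.61 on 20 to 33 counts in the controls. The fibroblast markers summed to between 1.05 and 1.99 FPKM over all libraries. Neuroblast markers, in contrast, were present in every library and summed to between 715 and 750 FPKM with shlucif, 1134 and 1310 FPKM with shArf1-1 and 1153 and 1242 FPKM with shArf1-2. Of 12 tested neuroblast genes 11 rose, among them Dbh (1.85), the gene of the enzyme that makes noradrenaline, while Nefm, a neurofilament gene, had 0 counts in all 9 libraries and was not tested.

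**Figure D5:**
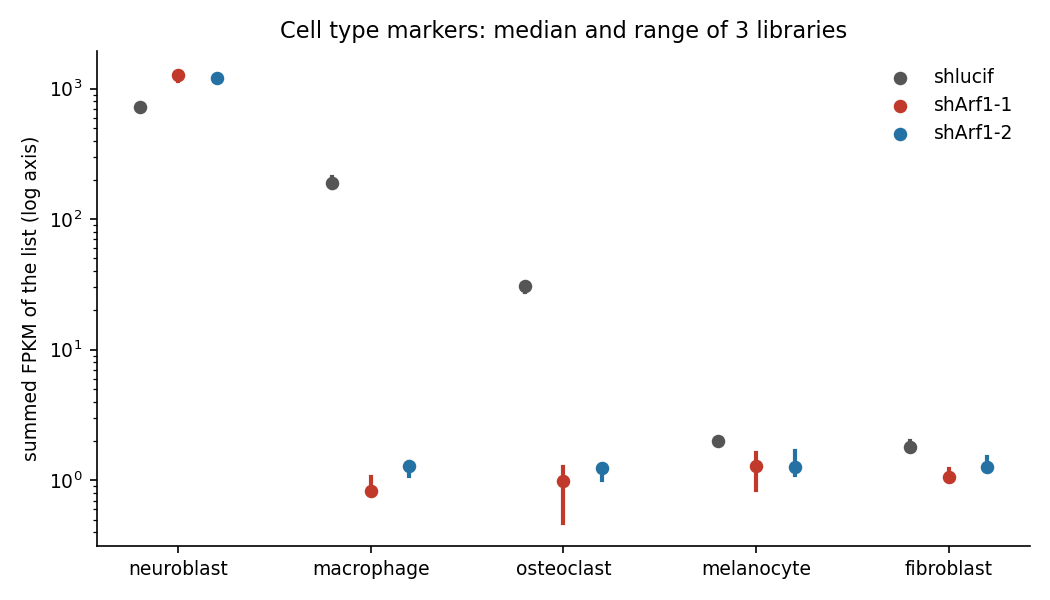
Summed FPKM (log axis) of the marker genes of 5 cell types, with points for the median and bars for the range of 3 libraries per group. The macrophage and osteoclast sums are far lower with both Arf1 hairpins than with shlucif, at most 1.39 FPKM against at least 27.8 FPKM, and the neuroblast sums are higher.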

How the data were processed

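The authors deposited 1 table that gives counts and FPKM per gene in 9 libraries, and 8 further rows that hold only annotation text were left out. The deposited counts were not normalized, and the deposited FPKM equals count per gene length and library total within 1.89e-05%. mRNA was selected on oligo(dT), fragmented and primed at random. The labels name mm10. The aligner, the counting tool and its use of strand are not given in the sources used here. The table's coordinates differ from GRCm38, so positions are those of GENCODE for GRCm38, taken by identifier. Columns named shArf2, which could also be read as hairpins against Arf2, were taken as shArf1-2, the remaining labelled group. In them Arf1 was lower than with shlucif and Arf2 was at 32.6 ± 0.894 FPKM, against 33.3 ± 0.521 FPKM with shlucif (SD, n = 3). The reading remains an inference.

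Counts were fitted with edgeR 4.0.16 in R 4.3.3 (filterByExpr, TMM, robust glmQLFit, glmQLFTest), as 6 Arf1-deficient against 3 shlucif libraries, with a fit of 3 groups for each hairpin and their difference. The threshold was an adjusted p of 0.05 over all tested genes. The named genes were the 6 genes, Arf1, Tfec, the 2 largest significant rises and falls per list (higher group at 5 CPM or more), and the 2 nearest profiles. Some genes that meet this rule are not reported here by name, and counts and sums include them. Other names (Rragc, Mcoln1, Plbd2, Sgsh, Atp6v0a1, Atp6v0b, Mrc1, Aif1, Cx3cr1, C1qa, Acp5, Calcr, Tyr, Pmel, Nefm, Ctsd, Cln3, Ctsa, Gla, Pip4p1, Atp6v1a, Nrbf2) were chosen after their values were seen, as were the ratios described. The genes and lists were chosen with earlier results of these data known. Sequences are from RefSeq. Of 31-base stretches, 1.78% of Fnip2 and less of the others recur in other genes. The pipeline was checked on simulated counts. Exact permutation tests used scipy 1.17.1, and alternatives used DESeq2 1.42.0 and limma 3.58.1. The precision is set by 11182479 to 15594615 counts per library.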

Additional observations from a re-analysis of the deposited data

Results flagged for a closer look

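Among the 6 Arf1-deficient libraries, 1 value stood apart from the rest in 2 of 7 genes examined. Chance alone sets a value apart in about 1 of 20 groups drawn from 1 population. The 6 libraries pool both hairpins, so that rate need not hold here. For Tfe3 the lowest library, shArf1-1 replicate 3, was at 79.5 CPM and the other 5 were between 87.9 and 89.2 CPM, so that the gap was 0.863 of the whole range, above the critical value of 0.625. For Flcn the highest library, shArf1-2 replicate 1, was at 31.5 CPM and the others were between 25.4 and 27.5 CPM, a gap of 0.655 of the range. With each library left out in turn, the log2 fold change of Flcn stayed between -1.34 and -1.27, and that of Tfe3 between -0.02 and 0.06 without passing the threshold.

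The change in Tfeb differed between the hairpins by 0.49 on the log2 scale (adjusted p = 0.000486 from edgeR), with the smaller decrease with shArf1-2, where more Arf1 remained. This difference held with each library left out, at 0.40 to 0.55, and in the other settings at 0.41 to 0.50.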

How the results depend on the processing

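The alternatives tried were other scalings, filters and tools, FPKM on a log scale and a replicate block. Further ones were the average of the hairpin contrasts and each library left out. Over all of them, 490 of 511 recomputed log2 fold changes kept their direction and their side of the threshold and 21 changed sign. Of 182 recomputed counts of genes, 179 stayed within 1.5 times and 3 did not. Tfeb, Mitf, Flcn, Fnip1 and Fnip2 stayed past the threshold against shlucif in every alternative run, and the CLEAR lysosome count, an alternative chosen after seeing the data, was 33 or 34. Values whose sign turned lay near 0. Tfe3 in Arf1-deficient cells was -0.0056 with DESeq2's size factors, -0.0031 with upper quartile scaling, -0.0059 with DESeq2 and -0.0051 with at least 10 counts in every library, and between -0.0201 and 0.0573 with a library left out. Tfe3 with shArf1-1 was 0.0362 with library size scaling, 0.0345 and 0.0378 in limma on log2(FPKM + 1) and log2(FPKM + 0.1), and -0.0538 to 0.0357 with a library left out. Between the hairpins, Fnip1 was at 0.012, 0.0117, 0.0132 and 0.0144 in 4 settings, and with a library left out Fnip1 ranged from -0.0512 to 0.0368, Tfe3 from -0.0051 to 0.0813 and Fnip2 from -0.022 to 0.0907. The cause was not tested. The number of all genes that differed between the hairpins, 1798, was 945 in limma on log2(FPKM + 0.1), 1159 without shArf1-1 replicate 1 and 1194 without shArf1-2 replicate 1.

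The replicate numbers showed no sign of pairing the samples. Deviations of same-numbered libraries correlated at -0.0822 to 0.0941 over 9 pairs, and those of differently numbered libraries at -0.187 to 0.193. With 3 libraries per group such correlations cannot show that pairing is absent, and the labels do not state it. A replicate block in the fit gave 7808 significant genes in place of 8027 and left Tfeb at -1.29. Depth limits Mitf, at 20 to 46 counts in Arf1-deficient cells, and Tfec, at 2 counts or fewer. The presence of macrophage markers and the control group cannot be told apart, since all 3 shlucif libraries carried them.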
